A study of Mus musculus with 6 samples.

Results

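The genes described here are 9 that guide lymphocytes into, through and out of lymphoid tissue: the sphingosine 1-phosphate (S1P) receptors S1pr1, S1pr4 and S1pr5, the transcription factor Klf2, the chemokine receptors Ccr7, Cxcr3, Cxcr4 and Cx3cr1, and the surface protein gene Cd69. They were taken by symbol from the array's value table, each symbol matched exactly and the row with the highest mean kept, and each gene had 1 such row. They are 9 of the 19938 genes with a row, and 7 of them reached the median of the whole table, 4.26 on the log2 scale, on at least 1 array and were tested. RNA came from splenic CD8+ T cells (CD8-TC) of Runx3-/- and Runx3+/+ (WT) mice, with 3 biological repeats per genotype and 1 array for each repeat. Per the labels all mice were ICR males aged 6 weeks, and all cells were activated through the T cell receptor (TCR) with anti-CD3 and anti-CD28 for 2 days, then diluted and kept with IL-2 at 100 units per ml for 4 days. The question was how gene expression in IL-2-activated CD8-TC differs when Runx3, a Runt-domain transcription factor that shapes the cytotoxic lineage, is missing. Only the Runx3-/- cells were also sorted by flow cytometry, to take out CD11c+CD8+ dendritic cells before culture and CD4+CD8- cells after it, so that sorting and genotype cannot be told apart.

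As background, T cells leave lymph nodes and spleen by following S1P, which is high in blood and lymph and low inside the tissue, and S1pr1 is the receptor that senses it. Klf2 drives transcription of S1pr1 in resting T cells, TCR signals shut Klf2 down, and Cd69 binds the S1P1 protein and removes it from the cell surface, which holds activated cells in the tissue. Ccr7 brings cells into the T cell zone, Cxcr4 into niches rich in CXCL12, and Cxcr3 and Cx3cr1 into inflamed tissue and along blood vessels.

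Some features of the arrays bear on every result. Runx3 itself was at 8.91, 9.11 and 9.27 in the Runx3-/- samples, against 8.77, 8.26 and 9.16 in WT samples, so its level did not separate the genotypes; the disrupted part of Runx3 is not given in the labels or methods used here, and the Runx3-/- samples are called KO-labelled (KO1 to KO3). Xist, which is made from an inactive X, stood at 10.64 in WT1 and between 3.31 and 3.40 on the other arrays. The Y-linked genes were low in WT1 alone. Eif2s3y was at 3.93 there and 9.24 to 9.39 elsewhere, Kdm5d at 3.68 and 5.92 to 7.02, and Uty at 3.91 and 7.10 to 8.27. WT1 thus has a female pattern against its male label, and the WT group mixes sexes by these genes while the KO-labelled group does not. The part of sex in the results was not tested. The mean of a list of G2/M cell cycle genes, as a deviation from its mean over all arrays, was 0.63, -1.45 and 0.75 in KO1, KO2 and KO3, against 0.18, 0.25 and -0.36 in WT1, WT2 and WT3. All 11 CD8-TC markers with a row were tested, led by Cd3g, Cd8b1 and Cd2. Of 13 dendritic cell markers, 2 were tested (Cd74 and H2-Eb1), Itgax, Flt3, Zbtb46 and Clec9a were below the table median on every array, and the summed unlogged level ran from 151 to 207 in KO-labelled samples, against 149 to 169 in WT samples. Of 6 markers of CD4+ T cells, 3 were tested. At the methods' threshold defined below 2 of them were higher in KO-labelled samples, as were 3.97% of all tested genes. The summed level of the 6 markers was 234 to 340 in KO-labelled samples and 191 to 244 in WT samples. Cd4 was at 6.95, 6.70 and 6.77 in KO-labelled samples, against 5.29, 5.80 and 6.50 in WT samples. The paper reports that in resting CD8-TC Runx3 binds Cd4 and that Cd4 expression rises when Runx3 is lost. The part of such a change within CD8-TC in the Cd4 values was not tested. Of 6 NK cell markers 2 were tested, Klrb1a and Klrb1c, and Ncr1 and Klra8 were below the table median on every array. Klrb1c was at 3.74, 3.76 and 3.77 in KO-labelled samples, against 4.34, 5.66 and 5.94 in WT samples, past the methods' threshold as lower. It passed the filter through the WT samples alone, with WT1 close to the table median, so that call is descriptive only. The summed NK level was 75.7 to 80.0 in KO-labelled samples and 86.5 to 132 in WT samples, without overlap. Of the 6 genes in that sum, 4 were below the table median on every array. Among single tested genes, 22.4% had no overlap. Of the B cell, macrophage, neutrophil and erythroid markers, 2 of 8, 1 of 9, 1 of 6 and 0 of 5 were tested. In such bulk samples a larger share of one cell type and more RNA per cell cannot be told apart, and the part of CD4+ or NK cells in the results was not tested.

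Promoter sequence is shown for 2 genes, because RUNX proteins bind a short motif and because they stand for both outcomes, with groups that did not overlap for Cxcr3 and nearly equal means for Klf2. RefSeq windows (build GRCm38.p6) from 250 bases before to 50 bases after the gene start were at hand for 6 of the 9 genes. The letters TGTGGT (present in 16.8% of all windows in the table), TGTGGC (in 18.9%), TGCGGT (in 6.45%) and TGCGGC (in 12.4%) were searched on both strands. Capitals mark the matches, and TGTGGT reads ACCACA when it lies on the other strand, as TGTGGC then reads GCCACA. The Cxcr3 window is chrX:101734098-101734397 on the minus strand and the Klf2 window is chr8:72318812-72319111 on the plus strand, each printed 5′ to 3′ along its gene.
Cxcr3: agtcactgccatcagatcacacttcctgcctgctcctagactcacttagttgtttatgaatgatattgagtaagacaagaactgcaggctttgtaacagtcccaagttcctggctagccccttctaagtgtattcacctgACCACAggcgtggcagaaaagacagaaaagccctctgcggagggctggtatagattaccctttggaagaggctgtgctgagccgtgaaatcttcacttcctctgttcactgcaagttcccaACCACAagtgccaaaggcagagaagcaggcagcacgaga
Klf2: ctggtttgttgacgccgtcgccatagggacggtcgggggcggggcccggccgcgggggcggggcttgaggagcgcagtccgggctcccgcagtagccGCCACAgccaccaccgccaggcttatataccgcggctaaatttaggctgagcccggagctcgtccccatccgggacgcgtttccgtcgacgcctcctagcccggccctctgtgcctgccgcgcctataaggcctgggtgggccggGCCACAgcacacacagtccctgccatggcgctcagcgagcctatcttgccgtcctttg
Each of these windows holds 2 matches. Both lie on the other strand in each gene. Cx3cr1 also has 2, and S1pr4, S1pr5 and Cxcr4 have none. At least 1 of these letter runs is in 45.2% of all 32851 windows in the table, so a match is common. The letters CACCC, which KLF proteins read, were also searched on both strands and are in 57.5% of all windows. They occur once or more in each of the 6 windows except that of Cxcr3. A match is a run of letters, not a bound site.

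S1pr1 and Cxcr3 were the members that stood highest in KO-labelled samples relative to WT samples, and neither passed the adjusted threshold. Differences are KO-labelled minus WT on the log2 scale, from limma, with p-values adjusted by the Benjamini-Hochberg method over all 10021 tested genes. At an adjusted p of 0.05, 0 of the 7 tested members passed, where 0.629% of all tested genes did and 0.269% did as higher. At the threshold of the study's methods, an unadjusted p under 0.05 with at least a 1.5-fold difference, 2 of 7 passed, both higher in KO-labelled samples, where 8.3% of all tested genes passed, 3.97% as higher and 4.33% as lower. The same 2 were the ones without overlap between the groups, where 22.4% of all tested genes had none and 11.6% had none with the KO-labelled samples on top. The median difference of the 7 was 0.44, beside -0.015 over all tested genes. All 7 differences were above 0 in the deposited values, although that of Klf2 was -0.028 once the array medians were set equal. The limma test at an unadjusted p under 0.05 gave 1413 of the 10021 genes, the 2 members among them.

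**Figure D1:**
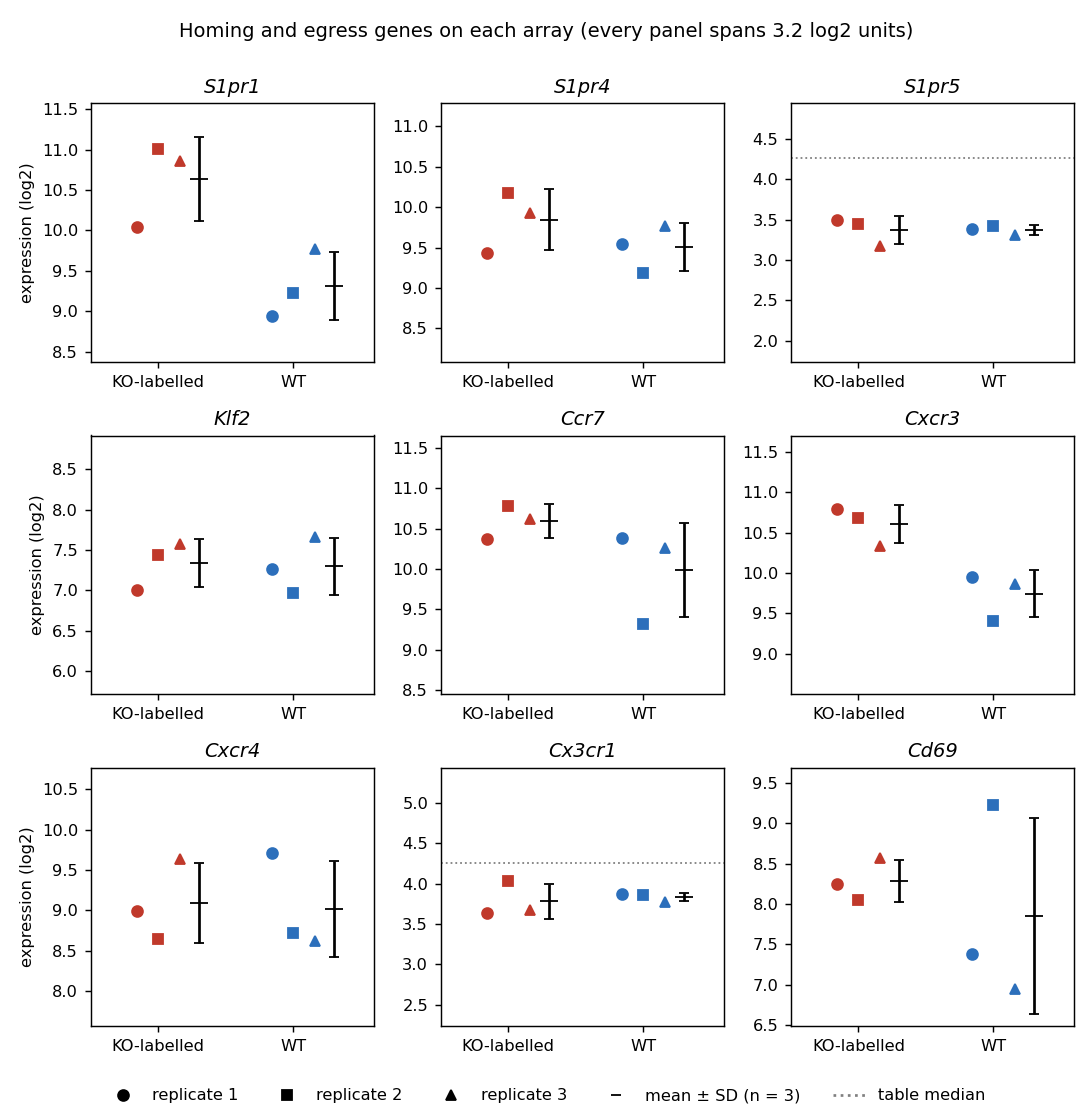
Deposited log2 expression of the 9 genes on each array, with KO-labelled samples left of WT samples, a marker shape per replicate number, the mean ± SD (n = 3) beside the points, and a dotted line at the table median of 4.26. S1pr1 and Cxcr3 have every KO-labelled value above every WT value, Cd69 has WT values from 6.95 to 9.23, and S1pr5 and Cx3cr1 lie below the dotted line throughout.

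S1pr1, the egress receptor, was at 10.05, 11.00 and 10.86 in KO1, KO2 and KO3, against 8.94, 9.23 and 9.77 in WT1, WT2 and WT3. The groups did not overlap, and the lowest KO-labelled sample, KO1, lay 0.28 above the highest WT sample, WT3. The means were 10.64 ± 0.51 in KO-labelled samples and 9.31 ± 0.42 in WT samples (SD, n = 3 each), a difference of 1.32 (SE 0.31, 95% interval 0.58 to 2.06) or 2.50-fold. The limma test gave an unadjusted p of 0.00392 and an adjusted p of 0.147, which placed S1pr1 at rank 267 of the tested genes by p. An exact permutation test of the S1pr1 values, two-sided, gave p = 0.1, the smallest that 3 arrays against 3 allow. The direction held under all 16 alternatives, from 1.10 to 1.62, while the limma adjusted p ran from 0.0236 to 0.435. The lowest came with arrays weighted by their quality, where the difference was 1.54. That setting put 547 of all tested genes past the adjusted threshold, against 63 in the main fit. The highest came without KO3.

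The other S1P receptors on the list were dim or had overlapping groups. S1pr4, a receptor of lymphocytes that is linked to their migration, was at 9.44, 10.18 and 9.92 in KO-labelled samples, against 9.55, 9.19 and 9.77 in WT samples. The groups overlapped, with KO1 below both WT1 and WT3. The difference of S1pr4 was 0.34 (SE 0.24, 95% interval -0.23 to 0.91, adjusted p = 0.540 in limma), an interval that reaches from a lower level to a higher one. S1pr5, the egress receptor of natural killer (NK) cells and of some circulating effector T cells, was at 3.50, 3.44 and 3.18 in KO-labelled samples and at 3.38, 3.43 and 3.30 in WT samples. These values are below the table median on every array, so S1pr5 was not tested and no fold is given.

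Cd69 was set apart by its spread in WT samples. It was at 8.24, 8.05 and 8.57 in KO-labelled samples, against 7.38, 9.23 and 6.95 in WT samples. The KO-labelled values spanned 0.51 and lay inside the WT values, which spanned 2.28, with WT2 highest of all 6 arrays and WT3 lowest. The difference over all arrays was 0.44 (SE 0.55, 95% interval -0.87 to 1.75, adjusted p = 0.746 in limma). Without WT2 the groups no longer overlapped and the difference was 1.13, past the methods' threshold with an unadjusted p of 0.00235 but with an adjusted p of 0.151. Without WT3 it was -0.015. The direction of Cd69 therefore rested on single WT arrays.

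Klf2, the transcription factor upstream of S1pr1, had nearly equal means in both groups. It was at 7.01, 7.43 and 7.57 in KO-labelled samples, against 7.26, 6.97 and 7.67 in WT samples, and the highest and lowest of the 6 arrays were both WT. The difference was 0.041 (SE 0.23, adjusted p = 0.955 in limma). Its 95% interval ran from -0.51 to 0.59, so that a difference anywhere within that range, in either direction, is compatible with these arrays.

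Of the 4 chemokine receptors on the list, Cxcr3 had the smallest p. Cxcr3, the receptor for the interferon-induced chemokines CXCL9 and CXCL10, was at 10.79, 10.68 and 10.34 in KO-labelled samples, against 9.95, 9.41 and 9.87 in WT samples. The groups did not overlap, and the lowest KO-labelled sample, KO3, lay 0.39 above the highest WT sample, WT1. The means were 10.60 ± 0.24 in KO-labelled samples and 9.74 ± 0.29 in WT samples (SD, n = 3 each), a difference of 0.86 (SE 0.20, 95% interval 0.38 to 1.34) or 1.82-fold. The limma test gave an unadjusted p of 0.00383 and an adjusted p of 0.145 (rank 264), and the exact permutation test of the Cxcr3 values gave p = 0.1. With array weights the difference was 0.57, under 1.5-fold, and across the 16 alternatives it ran from 0.573 to 0.995.

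Ccr7, the receptor for CCL19 and CCL21 that directs cells to the T cell zone, missed both thresholds. It was at 10.37, 10.78 and 10.62 in KO-labelled samples, against 10.38, 9.32 and 10.25 in WT samples. The groups overlapped only because WT1 stood 0.0077 above KO1, and WT2 was the lowest array by far. The difference was 0.61 (SE 0.29, 95% interval -0.086 to 1.30, adjusted p = 0.403 in limma). Without WT1 it was 0.81 and passed the methods' threshold, with an adjusted p of 0.424, and without WT2 it was 0.28. The size for Ccr7 thus moved with single WT arrays, while its direction held under all 16 alternatives.

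In Cxcr4 and Cx3cr1 the groups overlapped. Cxcr4, the receptor for CXCL12, was at 8.995, 8.65 and 9.63 in KO-labelled samples, against 9.71, 8.72 and 8.63 in WT samples. Both groups spanned about the same range, and the difference was 0.073 (SE 0.36, 95% interval -0.78 to 0.92, adjusted p = 0.947 in limma). Cx3cr1, the fractalkine receptor of cytotoxic effector cells, was at 3.64, 4.03 and 3.68 in KO-labelled samples and at 3.87, 3.86 and 3.78 in WT samples. All 6 Cx3cr1 values were below the table median and it was not tested.

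**Figure D2:**
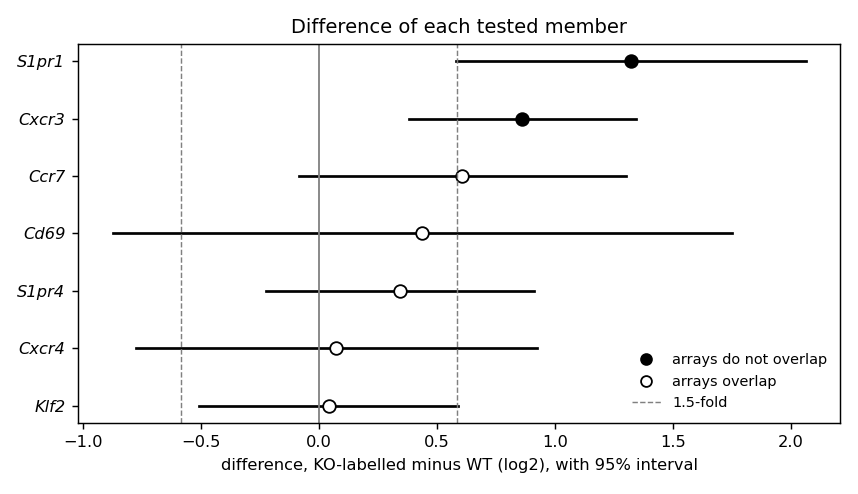
Difference KO-labelled minus WT (log2) of the 7 tested genes, with 95% intervals from limma. The intervals of S1pr1 (0.58 to 2.06) and Cxcr3 (0.38 to 1.34) lie above 0, and those of the other 5 genes span 0.

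Single arrays and the cell cycle list were looked at for the 2 leading members. KO2 had the lowest G2/M mean of all arrays, and WT2 the highest Cd69 and the lowest Ccr7 value. Without both of them S1pr1 differed by 1.10 (adjusted p = 0.282) and Cxcr3 by 0.66 (adjusted p = 0.229), both still past the methods' threshold. Cd69, whose highest array was then left out, also passed it, at 1.24 (adjusted p = 0.100). S1pr4 differed by 0.019 and Ccr7 by 0.18. With the G2/M mean as a covariate the S1pr1 difference was 1.31 (adjusted p = 0.104) and that of Cxcr3 0.86 (adjusted p = 0.130). Without WT1, the array with high Xist and low Y-linked genes, the values were 1.14 (adjusted p = 0.348) for S1pr1 and 0.97 (adjusted p = 0.254) for Cxcr3. Cxcr3 lies on the X chromosome, and WT1 was its highest WT array, at 9.95. The part of sex in the Cxcr3 values was not tested. All p-values here are from limma.

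**Figure D3:**
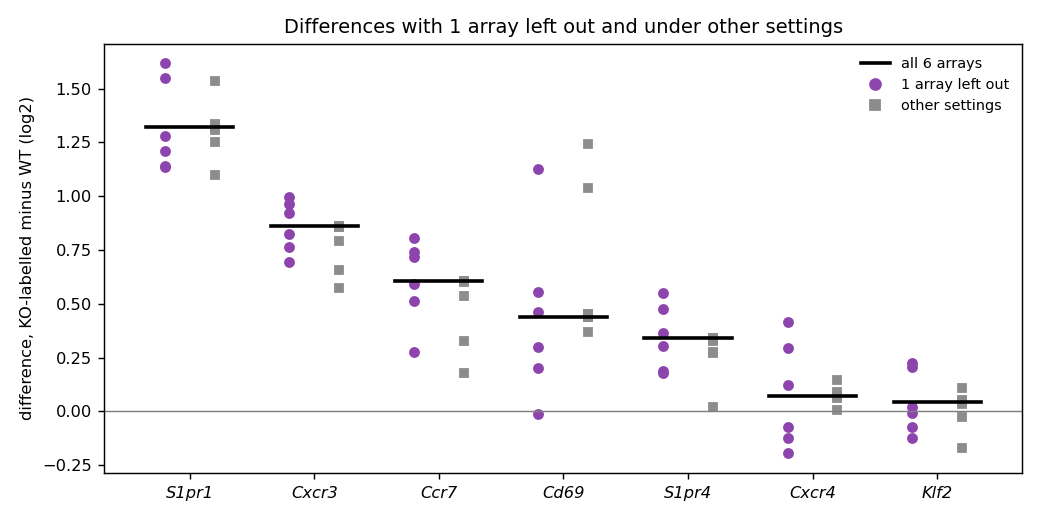
Difference KO-labelled minus WT (log2) of the 7 tested genes under 16 alternatives, with purple points for fits that leave out 1 array, grey squares for the other settings and a black bar for the fit on all 6 arrays. S1pr1 stays between 1.10 and 1.62 and Cxcr3 between 0.573 and 0.995, while points of Klf2, Cxcr4 and Cd69 fall on both sides of 0.

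The proteins that pass on or stop signals from these receptors included 2 genes past the adjusted threshold. Of 25 tested genes of heterotrimeric G protein signalling, 1 rose (Rgs1) and 1 fell (Pik3cg) at an adjusted p of 0.05, and at the methods' threshold 5 were higher and 2 lower. The list median was -0.063. For this list and those below, the shares over all tested genes were 0.629% past the adjusted threshold and 8.3% past the methods' threshold. By direction at the methods' threshold they were 3.97% higher and 4.33% lower, and 22.4% had groups without overlap. Rgs1, a GTPase activator that shortens signals of Gi-coupled chemokine and S1P receptors, was at 7.08, 6.75 and 7.13 in KO-labelled samples, against 5.78, 5.90 and 5.70 in WT samples, and rose by 1.19 (SE 0.15, adjusted p = 0.0328 in limma). Pik3cg, the catalytic subunit of the PI3 kinase that Gβγ activates, was at 6.64, 7.28 and 6.74 in KO-labelled samples, against 8.25, 8.30 and 8.14 in WT samples, a difference of -1.34 (SE 0.19, adjusted p = 0.0441). Neither gene had overlapping groups. Both calls were lost in 5 of the 6 fits that left out 1 array: without KO1, KO3, WT1, WT2 and WT3 in turn the adjusted p was 0.0724, 0.133, 0.109, 0.0659 and 0.150 for Rgs1, and 0.0832, 0.171, 0.141, 0.114 and 0.153 for Pik3cg. Without KO2 it was 0.0390 for Rgs1 and 0.0329 for Pik3cg, and the direction was kept each time.

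The other genes of that list with the smallest p had higher values in KO-labelled samples. Arrb1, a β-arrestin that uncouples and internalises receptors, was at 6.06, 7.34 and 7.01 in KO-labelled samples, against 5.50, 5.85 and 5.37 in WT samples, a difference of 1.23 (SE 0.33, adjusted p = 0.199). With 1 array left out the adjusted p of Arrb1 ran from 0.0480 without KO1, its lowest KO-labelled array, to 0.513 without KO3. Grk5, a kinase that marks receptors for arrestin, differed by 0.74 (SE 0.17, adjusted p = 0.141). Rgs14, a regulator of G protein signalling, differed by 0.69 (adjusted p = 0.117) and Gnb4, a G protein β subunit, by 0.93 (adjusted p = 0.140). None of these 4 passed the adjusted threshold with all arrays, and in none did the groups overlap. They were picked by smallest p, which favours groups without overlap. Of the 25 tested genes of the list, 7 had no overlap with the KO-labelled samples on top and 3 with the WT samples on top. Over all tested genes these shares were 11.6% and 10.9%. Other regulators of the same families, named after their values were seen, did not share the higher level of these 4 in KO-labelled samples. Arrb2, the second β-arrestin, was at 8.82, 8.68 and 8.65 in KO-labelled samples, against 9.01, 8.91 and 9.10 in WT samples, with no overlap and a difference of -0.29 (adjusted p = 0.383). Grk6 differed by -0.020, Rgs3 by -0.19 and Rgs19 by -0.21, none past either threshold. The second lower gene at the methods' threshold was Rgs16 at -0.69 (adjusted p = 0.343), and without KO3, WT2 or WT3 Pik3cg was the 1 lower gene left.

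**Figure D4:**
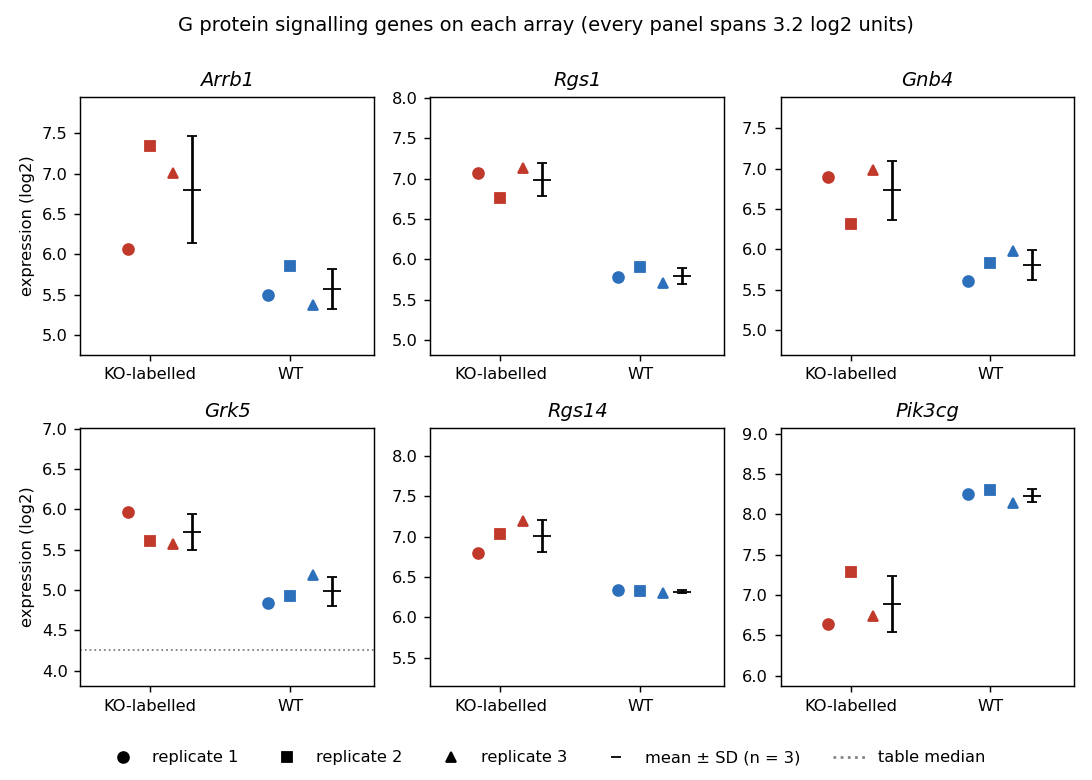
Deposited log2 expression of Arrb1, Rgs1, Gnb4, Grk5, Rgs14 and Pik3cg on each array, KO-labelled left of WT, with the mean ± SD (n = 3) beside the points; every panel spans the same number of log2 units. All 5 genes in the first panels have KO-labelled values above the WT values, and Pik3cg has KO-labelled values of 6.64 to 7.28 below WT values of 8.14 to 8.30.

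Over all arrays, no tested gene for the enzymes and transporters that make, move and degrade S1P was past either threshold. Of 20 such genes with a row 10 were tested, and 10 were below the table median on every array, among them the receptors S1pr2 and S1pr3 and the kinase Sphk1. At an unadjusted p under 0.05 without a fold limit there was Sgpp1, an S1P phosphatase, at 0.50 (SE 0.17, adjusted p = 0.283 in limma), with values of 8.56, 8.997 and 8.59 in KO-labelled samples, against 8.35, 8.06 and 8.22 in WT samples. The groups of Sgpp1 did not overlap, but the difference was under 1.5-fold. Another 3 genes had every KO-labelled value below every WT value: Acer3 at -0.38 (adjusted p = 0.383), Cers2 at -0.19 and Asah1 at -0.14. Over all tested genes 22.4% had no overlap. Plpp2 differed by -0.41 (adjusted p = 0.499), with overlap. Cers6, a ceramide synthase, differed by -1.09 (adjusted p = 0.411). It passed the methods' threshold as the 1 gene of the list without KO2, at -1.57 (adjusted p = 0.291), and also with array weights and without WT2 and KO2. The list median was -0.12. The 6 chemokine ligands of the members with a row were below the table median on every array.

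Among 20 tested transcription factors around Klf2, 4 were higher and 1 lower at the methods' threshold, and 0 passed the adjusted one (limma). The list median was 0.21. Foxo1, which drives Klf2, Ccr7 and other homing genes in naive T cells, was at 8.78, 9.62 and 9.34 in KO-labelled samples, against 8.44, 8.39 and 8.76 in WT samples. The lowest KO-labelled value of Foxo1 was just above the highest WT value, and the difference was 0.72 (SE 0.24, adjusted p = 0.272). Bach2, a repressor that holds back effector genes, differed by 1.19 (adjusted p = 0.310), Bcl6, a repressor of memory and follicular T cells, by 1.02 (adjusted p = 0.268), and Lef1, a factor of naive T cells named after its values were seen, by 1.01 (adjusted p = 0.341). Eomes, a T-box factor of cytotoxic cells, differed by -1.76 (adjusted p = 0.331), with KO3 at 5.79 far below the other arrays. Tbx21, the T-box factor that drives Cxcr3 and S1pr5, was also looked up after its values were seen and differed by 0.34 (SE 0.28, adjusted p = 0.597). The count of 4 higher genes was 1 without KO2, 0 without KO3 and 0 without WT2, and Eomes was no longer past the methods' threshold without WT1, WT2 or WT3.

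Receptors that could direct the same cells elsewhere lay on both sides of 0. Of 5 other chemokine receptors tested, 1 was higher (Ccr9) and 2 lower (Cxcr6 and Ccr2) at the methods' threshold, and 0 passed the adjusted one (limma). Ccr9, the gut and thymus homing receptor, was at 6.20, 8.65 and 5.47 in KO-labelled samples, against 3.64, 3.61 and 3.64 in WT samples, where it was below the table median. Ccr9 passed the filter through the KO-labelled samples alone, so its p-values are descriptive only. It was at least 5.70-fold higher in KO-labelled samples than that median. Its adjusted p was 0.143, ran from 0.0390 without KO2 to 0.324 without WT3, and was 0.0125 with the G2/M covariate. Cxcr6, a receptor of tissue-resident T cells, differed by -2.10 (adjusted p = 0.0686). With 1 array left out its adjusted p ran from 0.0429 without KO1 to 0.236 without KO3. Ccr2 differed by -1.55 (adjusted p = 0.133), and its adjusted p ran from 0.0480 without KO1 to 0.383 without KO3. Of the remaining receptors, Ccr4 differed by 0.81 (adjusted p = 0.514) and Ccrl2, an atypical receptor named after its values were seen, by 0.14 (adjusted p = 0.767). Without WT2 the higher genes at the methods' threshold were 2.

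Of 16 other trafficking receptors coupled to G proteins, 2 were past the adjusted threshold as lower, both tested only because of their WT values. Gpr55, a lipid receptor that slows migration of intraepithelial T cells in mice, was at 3.75, 3.88 and 3.79 in KO-labelled samples, against 6.32, 7.40 and 6.41 in WT samples (adjusted p = 0.0143 in limma). Gpr15, a receptor for homing to the colon, was at 3.49, 3.86 and 3.60 in KO-labelled samples, against 5.59, 6.54 and 6.23 in WT samples (adjusted p = 0.0160). Both were below the table median on every KO-labelled array and passed the filter through the WT samples alone. Their p-values are therefore descriptive only, and the sizes are given as bounds. Against the table median in place of the KO-labelled values, Gpr55 was at least 5.47-fold lower and Gpr15 at least 3.63-fold lower in KO-labelled samples. Without KO3 the adjusted p of each was 0.0848, and without WT3 it was 0.0512 for Gpr55 and 0.0796 for Gpr15. At the methods' threshold the higher ones were Gpr174, a lysophosphatidylserine receptor, at 1.43 (adjusted p = 0.126), and Gpr171 at 0.67 (adjusted p = 0.176). Gpr183, the oxysterol receptor that positions cells within lymphoid tissue, was the remaining lower one at -1.01 (adjusted p = 0.337), and was no longer past that threshold without KO1, KO2, WT1 or WT3. Cysltr2 differed by 0.35, under 1.5-fold. The list median was 0.051.

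Adhesion genes used at the vessel wall and in tissue gave 1 adjusted call among 20 tested. Itgae, the αE integrin that binds E-cadherin, was at 4.62, 4.23 and 5.82 in KO-labelled samples, against 8.57, 8.86 and 7.61 in WT samples, and the difference was -3.46 (SE 0.48, adjusted p = 0.0380 in limma). With any 1 of the 6 arrays left out its adjusted p lay between 0.0525 and 0.124. Gcnt1, the enzyme that makes core 2 O-glycans for selectin ligands, was the other lower gene at the methods' threshold. It was below the table median on every KO-labelled array and at least 2.03-fold lower there (adjusted p = 0.0594). Gcnt1 passed the filter through the WT samples alone, so its p-value is descriptive only. Itga4, which pairs with Itgb7 for gut homing, was at 9.26, 9.81 and 8.98 in KO-labelled samples, against 8.21, 6.17 and 8.67 in WT samples. Its difference of 1.67 (adjusted p = 0.308) was 0.91 without the low array WT2. Cd44, the hyaluronan receptor, differed by 0.88 (adjusted p = 0.287), and Itgb7 by 0.41 (adjusted p = 0.318), under 1.5-fold. The 2 higher genes at the methods' threshold were 0 without KO1 and 1 without KO2, KO3, WT1 or WT2.

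Of 31 tested genes of the lymphocyte motility machinery, 3 were higher and 1 lower at the methods' threshold and 0 passed the adjusted one (limma). Over all tested genes 8.3% passed the methods' threshold. The list median was 0.098. The higher ones included Stk4, a kinase needed for naive T cell trafficking, at 0.73 (SE 0.21, adjusted p = 0.215) and Stk10, which phosphorylates ezrin family proteins, at 0.59 (adjusted p = 0.256). In both genes the groups did not overlap, as in 22.4% of all tested genes. Myo1f, a myosin, differed by -0.65 (adjusted p = 0.322). Without WT2 the counts were 1 higher and 2 lower, and the lower gene was lost without KO1, KO2, WT1 or WT3.

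Cd69 belongs with genes that TCR signals induce, and they are given beside it. Of 21 tested activation genes, 2 were higher and 6 lower at the methods' threshold, 0 passed the adjusted one (limma), and the list median was -0.15. Tnfrsf9, the costimulatory receptor 4-1BB, was at 6.47, 5.20 and 5.48 in KO-labelled samples, against 8.16, 10.09 and 8.51 in WT samples (difference -3.20, adjusted p = 0.0677). WT2 was the highest array for Tnfrsf9 as it was for Cd69. Dusp5, a phosphatase that opposes ERK, differed by -1.63 (adjusted p = 0.0688) and Myc, the growth regulator, by -0.93 (adjusted p = 0.117). Dusp2, another such phosphatase, differed by 0.85 (adjusted p = 0.143). The 2 higher genes were 1 without KO1, KO3 or WT1.

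**Figure D5:**
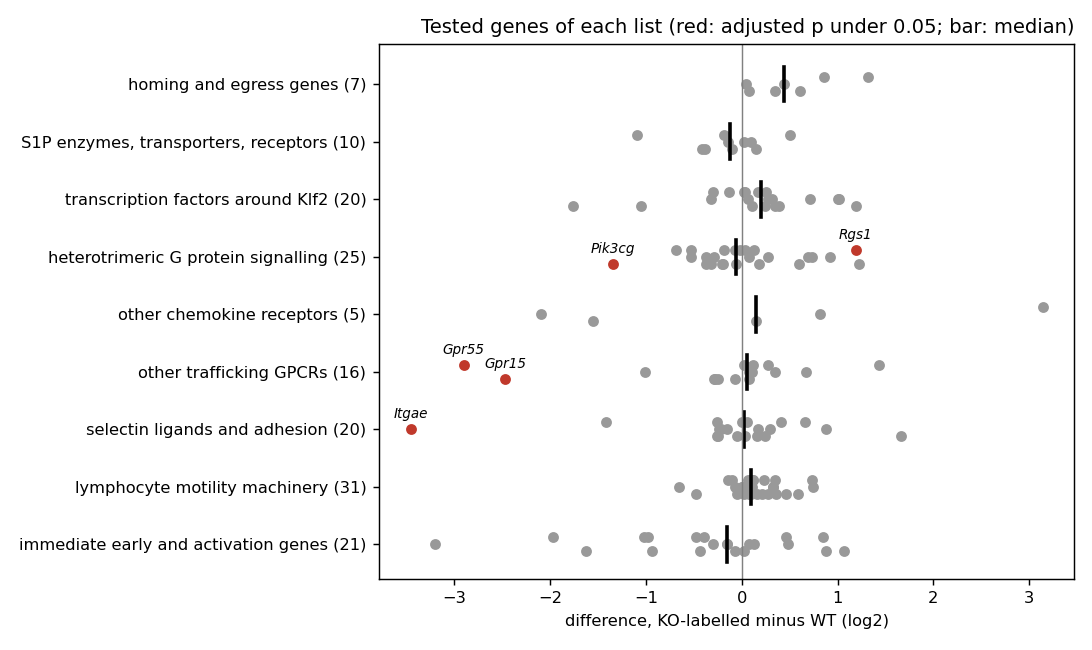
Difference KO-labelled minus WT (log2) of every tested gene in the homing and egress genes and in 8 related lists, with the number tested beside each name, a black bar at the list median and red for an adjusted p under 0.05. The 7 homing and egress genes have a median of 0.44, and the red points are Rgs1 above 0 and Pik3cg, Gpr55, Gpr15 and Itgae below it. Gpr55 and Gpr15 passed the filter through the WT samples alone.

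The genes whose pattern over the 6 arrays was most like that of the 2 leading members were found by the root mean square distance between profiles centred on their own mean, on the log2 scale. For S1pr1, whose own deviations had a root mean square of 0.76, they were Smpdl3a at a distance of 0.19, Nxpe3 at 0.23 and Fam102a at 0.26. Smpdl3a encodes a phosphodiesterase related to acid sphingomyelinase and differed by 1.57 between the groups. For Cxcr3, with a root mean square of 0.48, they were Ampd1 at 0.12, Camk2d at 0.12 and Ly9 at 0.13. Ampd1 is an AMP deaminase, Camk2d a calmodulin-dependent kinase and Ly9 a receptor of the SLAM family. The likeness is over 6 arrays in 2 groups and is a description only.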

How the data were processed

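Total RNA of IL-2-activated CD8-TC from 3 Runx3-/- and 3 WT biological repeats was hybridised to Affymetrix mouse gene ST 1.0 arrays. The authors normalised the scanner files in Partek with robust multichip average (RMA) and GC correction, per the labels and methods, and the deposited table holds log2 values with a column for each array. The software versions and the background level were not stated in the labels or the methods. Such summaries compress low values, so that differences of dim genes are understated.

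Of 35399 rows, 21789 had exactly 1 gene symbol in a table of probes and genes, 1621 had several and 11989 were not named. For each of 19938 genes the row of highest mean was used. A gene was tested if its highest value reached the table median of 4.26, which stands in for the background, and this left 10021 genes. Groups were compared with limma (version 3.58.1, R 4.3.3; lmFit and eBayes, two-sided, no covariate), with Benjamini-Hochberg adjustment over the tested genes. Standard errors are moderated ones. The methods call the replicates biological repeats and do not say whether each is a single mouse or a pool. The p-values measure the spread between these repeats and their cultures, and precision is limited by the number of arrays. The fit was tested on simulated data. Figures were drawn with matplotlib 3.10.9.

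The members and lists were chosen with earlier results of these data known. The text names all members, in each list the genes past the adjusted threshold and up to 4 more by smallest p, up to 3 markers of a cell type by highest mean, and the 3 genes nearest in profile to each member past the methods' threshold. Other genes, among them Rgs16, Arrb2, Grk6, Rgs3, Rgs19, Cers2, Asah1, Ccrl2, Lef1, Tbx21, Xist, Eif2s3y, Kdm5d, Uty, Cd4 and the dim genes, were named after their values were seen. A gene of the motility list that this rule names is not reported here. The 16 alternatives cover the filter, the scaling, the row per gene, the replicate block, the prior, an unmoderated model, array weights, arrays left out and a G2/M covariate.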

Additional observations from a re-analysis of the deposited data

How the results depend on the processing

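The directions of S1pr1, Cxcr3, Ccr7 and S1pr4 held under all 16 alternatives, while those of Klf2, Cxcr4 and Cd69 held under 11, 13 and 15. Klf2 was -0.028 with array medians set equal, -0.17 without WT2 and KO2, and between -0.12 and 0.23 with 1 array left out; Cxcr4 ran from -0.20 to 0.42 and Cd69 from -0.015 to 1.13 with 1 array left out. The number of genes past the adjusted threshold, 63 in the main comparison, was 36 with no filter on dim rows, 547 with array weights and 9 to 67 with 1 array left out. The unmoderated linear model gave 0 genes, with 1173 at an unadjusted p under 0.05. The replicate numbers were not taken to pair the arrays, because same-numbered arrays did not deviate together (r = -0.13, -0.37 and -0.13), and the fit with the replicate block gave 1 gene. At the methods' threshold 832 genes in the main comparison stood beside 508 in the unmoderated model and 651 to 1258 with 1 array left out. The split into higher and lower genes at that threshold was 398 and 434 as deposited, 362 and 523 after quantile normalization and 324 and 532 with medians set equal, but 463 and 301 without KO2, 504 and 459 without WT3, 448 and 430 without WT1, and 510 and 371 without WT2 and KO2. Among the 7 members, array weights gave 1 past the adjusted threshold (S1pr1). With 1 array left out, 2 to 3 members passed the methods' threshold and 2 to 4 had groups without overlap. Smaller groups separate more easily by chance, and the share of all tested genes without overlap is not given for these fits. The overlap counts with 1 array left out therefore have no background to be read against. The 5 adjusted calls named among the lists were lost in the replicate block and the unmoderated model. Those of Gpr55 and Gpr15 are for genes that passed the filter through the WT samples alone. With no filter on dim rows the adjusted p was 0.0793 for Pik3cg and 0.0928 for Itgae, after quantile normalization 0.0655 for Pik3cg, and with medians set equal 0.0650 for Rgs1. Where the filter, the scaling or the covariate moved single values, the cause was not tested. Signal over background could not be judged, since the deposited values carry no detection calls.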
